A study of Mus musculus with 10 samples.

Results

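The *Cyp2c* cluster of mouse chromosome 19 holds 14 cytochrome P450 genes that were counted in these livers, and 7 of them, *Cyp2c29*, *Cyp2c37*, *Cyp2c50*, *Cyp2c54*, *Cyp2c55*, *Cyp2c65* and *Cyp2c66*, are described here. They were chosen by being higher in livers of MI-883-treated mice than in control livers, so that their difference between the groups is a description and not a test. The counts cover 16647 genes. MI-883 is a small molecule that the study describes as an agonist of human CAR and an antagonist of human PXR, and the study asked how it acts on the liver of hypercholesterolemic animals. Both groups were humanized PXR-CAR-CYP3A4/3A7 male mice on a high-fat diet (HFD), 10 to 15 weeks old when the diet began and on it for 8 weeks before treatment. The 5 MI-883-treated mice received 5 mg/kg by oral gavage 3 times a week for 4 weeks, and the 5 control mice received the vehicle (DMSO, polyethylene glycol and corn oil) on the same schedule. The control mice thus carried the same human genes and ate the same diet, and animals with the mouse receptors or on another diet were not analysed here.

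CYP2C enzymes sit in the endoplasmic reticulum, where they oxidize drugs and also the polyunsaturated fatty acids of the cell. Several of the mouse enzymes are epoxygenases, which turn arachidonic acid and linoleic acid into epoxides that soluble epoxide hydrolase then opens to diols. CAR and PXR are nuclear receptors that pair with RXR and bind repeats of a short hexamer near their target genes, and hepatic *Cyp2c29*, *Cyp2c37* and *Cyp2c55* are known to respond to activators of these receptors. *Cyp2c65* and *Cyp2c66* are better known from the gut than from the liver.

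The 14 genes lie on chr19:39006940-40187286 (GRCm38, RefSeq annotation), and the raised genes filled 2 runs of neighbours. *Cyp2c55*, *Cyp2c65*, *Cyp2c66* and *Cyp2c29* hold places 1 to 4, all on the plus strand. *Cyp2c37*, *Cyp2c54* and *Cyp2c50* hold places 11 to 13, with *Cyp2c54* on the minus strand. The 6 genes between the runs (*Cyp2c39*, *Cyp2c38*, *Cyp2c67*, *Cyp2c68*, *Cyp2c40* and *Cyp2c69*) and the last gene, *Cyp2c70*, were not raised.

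By coding sequence the raised genes held a pair and a trio of near copies, and were otherwise about as far from each other as from the rest of the cluster. Over the 21 pairs of raised genes the median identity was 76.28% (74.76 to 96.33%), and over the 49 pairs of a raised with another *Cyp2c* gene it was 75.65% (68.83 to 89.46%). *Cyp2c65* and *Cyp2c66* were identical at 96.33% of aligned coding bases. Within the trio the identities were 96.12% for *Cyp2c37* with *Cyp2c50*, 95.24% for *Cyp2c54* with *Cyp2c50* and 95.10% for *Cyp2c37* with *Cyp2c54*. The nearest relative of *Cyp2c29* was *Cyp2c39* (89.46%), a gene that was not raised, and *Cyp2c55* had no close relative, the nearest being *Cyp2c29* at 77.41%.

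Near copies can exchange reads. Of the 100-base stretches of the transcripts, 7.82% of those of *Cyp2c65* and 9.34% of those of *Cyp2c66* also occurred in the other gene of the pair, and 4.70%, 7.59% and 9.40% of those of *Cyp2c37*, *Cyp2c54* and *Cyp2c50* in the other genes of the trio. *Cyp2c29* and *Cyp2c55* shared 0%. None of these stretches of the pair or trio lay in a gene that was not raised. Of 50-base stretches, the pair and the trio shared 20.6 to 30.7%, in part with genes that were not raised (*Cyp2c37* with *Cyp2c38* and *Cyp2c69*). How reads that fit several genes were counted is not given in the sources used here, so the split of counts among near copies is uncertain.

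The upstream windows of the near copies are shown because the pair was barely detected and part of the trio abundant in control livers, while within each set most of the sequence before the start was shared. The lines give the 250 bases before the annotated start of *Cyp2c65* (chr19:39060756-39061005), *Cyp2c66* (chr19:39113648-39113897), *Cyp2c37* (chr19:39992174-39992423) and *Cyp2c50* (chr19:40089429-40089678), all on the plus strand, from the RefSeq promoter table of GRCm38.p6. For *Cyp2c55* (chr19:39006978-39007007) and *Cyp2c29* (chr19:39287054-39287083), also on the plus strand, 30 bases around TATAAA are shown, since their windows in the table, which start from another transcript, reach into the annotated gene. Capitals mark TATAAA, the receptor hexamer AGTTCA (read here on the other strand as TGAACT) and CAAAGTCCA, a sequence of the kind that HNF4A binds.
Cyp2c65: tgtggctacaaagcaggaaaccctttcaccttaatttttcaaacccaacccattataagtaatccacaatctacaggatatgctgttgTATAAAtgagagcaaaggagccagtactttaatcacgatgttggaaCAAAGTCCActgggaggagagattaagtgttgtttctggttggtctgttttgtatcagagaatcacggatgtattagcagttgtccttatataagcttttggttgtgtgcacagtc
Cyp2c66: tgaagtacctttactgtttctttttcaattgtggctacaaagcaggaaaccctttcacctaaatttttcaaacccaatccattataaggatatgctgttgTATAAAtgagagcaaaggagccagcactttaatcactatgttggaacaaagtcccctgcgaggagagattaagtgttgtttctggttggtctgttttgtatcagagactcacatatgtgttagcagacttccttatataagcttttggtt
Cyp2c37: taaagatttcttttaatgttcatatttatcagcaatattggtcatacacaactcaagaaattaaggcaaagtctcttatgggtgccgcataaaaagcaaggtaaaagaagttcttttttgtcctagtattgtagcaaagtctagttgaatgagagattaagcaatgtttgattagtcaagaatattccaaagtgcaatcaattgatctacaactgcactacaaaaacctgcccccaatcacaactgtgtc
Cyp2c50: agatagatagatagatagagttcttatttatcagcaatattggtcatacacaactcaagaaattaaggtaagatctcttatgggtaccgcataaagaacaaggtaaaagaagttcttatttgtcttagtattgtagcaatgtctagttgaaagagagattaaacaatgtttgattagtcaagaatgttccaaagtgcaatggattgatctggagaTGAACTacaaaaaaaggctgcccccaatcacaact
Cyp2c55: ggcagctagcatTATAAAagccctgggctg
Cyp2c29: ttttttcagtgtTATAAAaactctgtgatg

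Aligned over 221 bases, the windows of *Cyp2c65* and *Cyp2c66* were 94.12% identical, and those of *Cyp2c37* and *Cyp2c50* 87.76% over 245 bases. The window of *Cyp2c29* was closest to those of *Cyp2c39* (82.28%) and *Cyp2c38* (82.02%). Windows were found for 6 of the 7 raised genes, and *Cyp2c54* had none in the table. TATAAA occurred in the windows of the 4 genes of the first run and in none of the 2 windows of the second run, against 3 of the 7 other *Cyp2c* genes and 12.4% of 32851 mouse windows of this length. It began 29 bases before the start in *Cyp2c55*, 19 bases in *Cyp2c29*, and at positions -162 in *Cyp2c65* and -150 in *Cyp2c66* counted from the start. Both strands were searched for the hexamers AGGTCA and AGTTCA. *Cyp2c29* held AGGTCA at 154 bases before the start (14% of all windows hold it) and *Cyp2c50* held AGTTCA at 35 bases (11.8%), and among the 7 other *Cyp2c* genes 4 held a hexamer. No direct repeat of these hexamers with 3, 4 or 5 bases between, and no everted repeat with 6 between, occurred in any *Cyp2c* window. CAAAGTCCA occurred in 1 raised gene, *Cyp2c65*, and in 5 of the 7 others, against 0.384% of all windows. The others were *Cyp2c70* and the near copies *Cyp2c67*, *Cyp2c68*, *Cyp2c40* and *Cyp2c69*. The windows of these near copies were 92.94 to 98.64% identical, so their matches are not separate occurrences. The same holds for TATAAA in *Cyp2c65* and *Cyp2c66*, and for AGTTCA in *Cyp2c40* and *Cyp2c69*. All motifs named here are matches of letters in a short window, and they say nothing of binding.

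The libraries held between 24014461 and 36221514 counts in control livers (median 31734138) and between 23513665 and 28349963 in MI-883-treated livers (median 24581671). Levels are given as CPM, the counts relative to the TMM-normalized library size, with the SD over 5 livers. Changes are log2 fold changes of MI-883 over control from the quasi-likelihood fit of edgeR to 13219 genes with at least 60 counts in all. In this fit 1.03% of the genes passed an adjusted *P* of 0.05, and the median log2 fold change of all genes was 0.00. DESeq2, the method of the study and here an alternative fit to the same genes, called 291 genes higher and 172 lower. The share of all genes at an unadjusted *P* under 0.05 is not given, so counts at that threshold have no background beside them. In whole liver RNA, a smaller number of cells of a type and less RNA per cell cannot be told apart.

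*Cyp2c29*, an epoxygenase of arachidonic acid and the most abundant of the group, counted 2209, 2543, 2332, 2812 and 2879.5 CPM in the 5 control livers and 5037, 5655, 4685, 5349.5 and 5219.9 CPM in the 5 MI-883-treated livers. The lowest treated liver lay 1.63-fold above the highest control liver. From a mean of 2555 ± 292 CPM it gained 2634 CPM (SE 208), a log2 fold change of 1.02 (SE 0.102). It had the smallest relative change of the 7 genes, and its gain in CPM ranked 1 among all 13219 tested genes.

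The trio of the second run followed, with larger relative changes from lower levels. *Cyp2c50*, also an epoxygenase, counted 410.2, 428, 508, 628 and 524 CPM in control livers and 1732, 1976, 1540.1, 2071 and 2053 CPM in MI-883-treated livers. The means were 499.5 ± 87.1 and 1874 ± 231 CPM, and the log2 fold change was 1.91 (SE 0.131). *Cyp2c37*, which hydroxylates arachidonic acid, counted 289, 374, 302, 473 and 489.7 CPM in control livers and 1009.8, 1324, 1026, 1390.4 and 1324 CPM in MI-883-treated livers. The lowest treated liver lay 2.06-fold above the highest control liver, and the log2 fold change was 1.66 (SE 0.163). *Cyp2c54*, a near copy of both, counted 109.9, 142, 179, 226 and 216 CPM in control livers and 719, 972, 652, 962 and 862 CPM in those given MI-883. The log2 fold change of 2.26 (SE 0.192) was the largest of the trio, and the groups were 2.89-fold apart at their nearest livers.

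*Cyp2c55*, which makes hydroxylated and epoxidized products of arachidonic acid, combined a low and even baseline with a large rise. It counted 22.8, 20.5, 21.4, 26.3 and 20.9 CPM in control livers and 173, 236, 171, 213 and 236 CPM in MI-883-treated livers. The lowest treated liver lay 6.52-fold above the highest control liver, the widest such gap among the 5 genes with at least 10 counts in every liver. The means were 22.4 ± 2.36 and 206 ± 32.0 CPM, and the log2 fold change was 3.20 (SE 0.118).

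The pair *Cyp2c65* and *Cyp2c66* was barely detected in control livers. *Cyp2c65* had 7, 6, 0, 1 and 5 counts in the control livers and 50, 33, 34, 32 and 57 counts in the MI-883-treated livers. *Cyp2c66* had 1 count in control replicate 4 and 0 in the other control livers, and 16, 23, 12, 35 and 82 counts in the MI-883-treated livers. For *Cyp2c65* the ratio of summed counts, corrected for depth, was 12.5 (exact 95% interval 7.79 to 21.1). For *Cyp2c66*, with 1 control count in all, it was 193 (34.2 to 7678). These intervals cover counting error only, and the fitted fold change of *Cyp2c66* depends on the prior count of the fit. The treated levels of 1.57 ± 0.301 CPM for *Cyp2c65* and 0.444 to 2.91 CPM for *Cyp2c66* were small beside those of the other 5 genes.

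**Figure D1:**
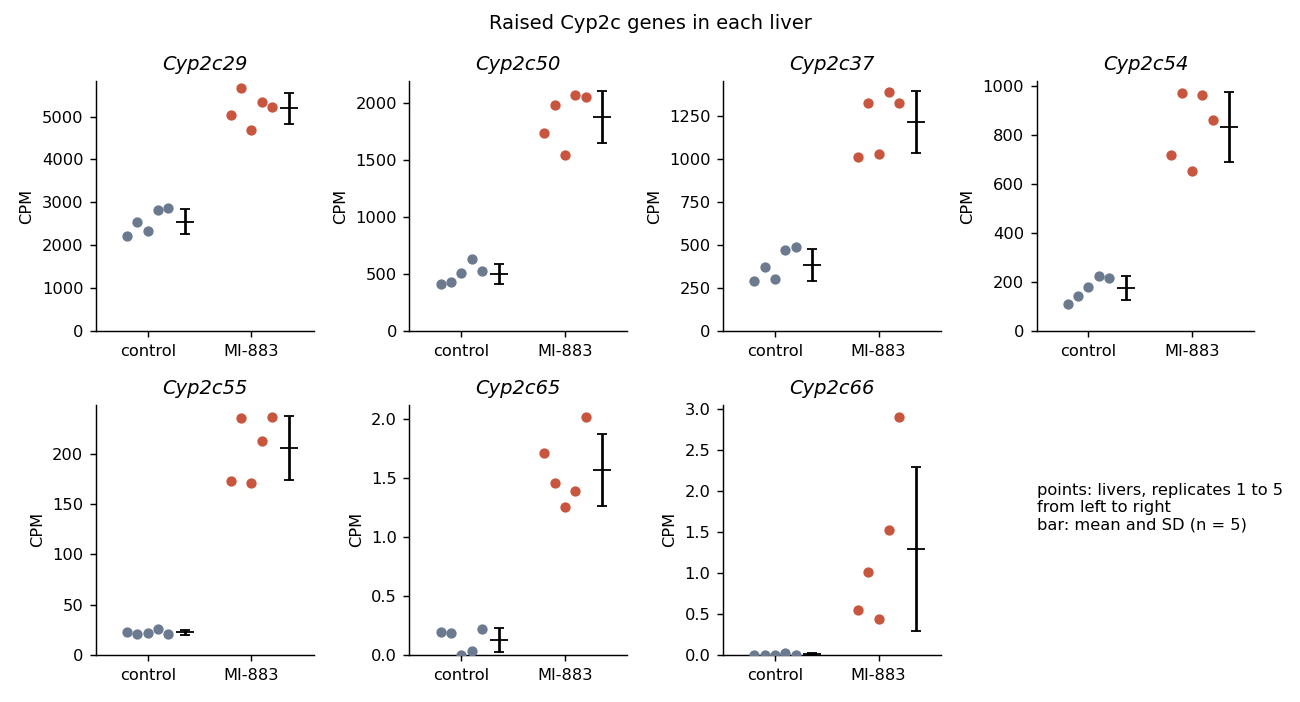
CPM of the 7 raised *Cyp2c* genes in each of the 5 control and 5 MI-883-treated livers, with mean and SD beside the points and a separate axis from 0 for each gene. In each gene the lowest treated liver lies above the highest control liver, by 1805 CPM in *Cyp2c29* and by 0.415 CPM in *Cyp2c66*.

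The treated and control livers did not overlap in any of the 7 genes, a pattern that 2.05% of all tested genes showed in this direction, and all 7 were among the 0.764% of genes called higher. The genes were selected on this contrast, so these counts describe the choice. The raised gene with the smallest change was *Cyp2c29* (log2 fold change 1.02), and the gene of the cluster next below it was *Cyp2c68* (-0.53), so that no gene of the cluster lay near the line between the sets. Outside the cluster, *Cyp2c23*, the gene of another epoxygenase of the subfamily, was at 231 CPM in control livers and 249 CPM in MI-883-treated livers (log2 fold change 0.11, SE 0.103, adjusted *P* = 0.636, edgeR).

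**Figure D2:**
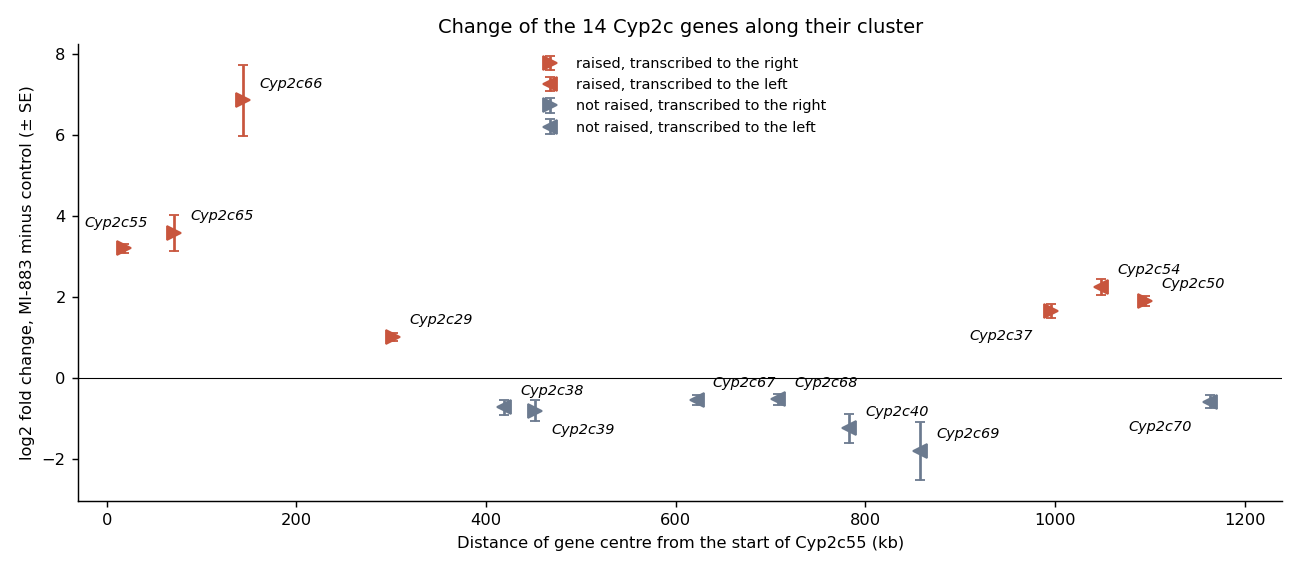
Log2 fold change (MI-883 minus control, with SE) of the 14 *Cyp2c* genes against the distance of the gene centre from the start of *Cyp2c55*, with arrowheads for the direction of transcription. The raised genes stand in 2 runs at the left and near the right end, from 1.02 in *Cyp2c29* upward, and the 7 others lie between -1.80 and -0.53, while the value of *Cyp2c66* rests on 1 control count.

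The order of the genes by mean level was the same in both groups. Per kilobase of exon, the scale on which genes can be compared, *Cyp2c29* stood at 1264 ± 144 CPM per kb in control livers, *Cyp2c50* at 274 ± 47.9, *Cyp2c37* at 211 ± 51.3, *Cyp2c54* at 97.7 ± 27.5 and *Cyp2c55* at 11.2 ± 1.18. *Cyp2c65* and *Cyp2c66* were at 0.0655 and 0.00355 CPM per kb. The ranges over control livers of *Cyp2c50* (225 to 345 CPM per kb) and *Cyp2c37* (158 to 268) overlapped. Within each control liver *Cyp2c50* was still the higher gene, with a ratio in CPM of 1.07 to 1.68. The control ranges of *Cyp2c65* and *Cyp2c66* overlapped as well. With MI-883 the levels were 2566 ± 179 CPM per kb for *Cyp2c29*, 1029.9 ± 127 for *Cyp2c50*, 666 ± 99.7 for *Cyp2c37*, 467 ± 80.4 for *Cyp2c54* and 103 ± 16.1 for *Cyp2c55*. The range of *Cyp2c50* (846 to 1138 CPM per kb) then lay wholly above that of *Cyp2c37* (554 to 762). Those of *Cyp2c65* (0.653 to 1.05) and *Cyp2c66* (0.273 to 1.78) still overlapped. Among 13185 genes with a known exon length, the level per kb of *Cyp2c29* ranked 52 in control livers and 21 with MI-883, and that of *Cyp2c55* ranked 3863 and 688.

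The genes with the largest absolute gains were not those with the largest relative changes. The genes gained CPM in the order of their baseline (Spearman rho 1 over 7 genes), and their log2 fold changes fell with control CPM per kb (rho -0.964 over 7 genes). These are descriptions across genes of the same livers, and the control level enters both measures. *Cyp2c29* held 46.3% of the summed gain, *Cyp2c50* 24.2% (1375 CPM, SE 110.3), *Cyp2c37* 14.6% (829.6 CPM, SE 91.5), *Cyp2c54* 11.6% (659 CPM, SE 67.9) and *Cyp2c55* 3.23% (184 CPM, SE 14.4). *Cyp2c65* and *Cyp2c66*, with the largest relative changes, gained 1.44 CPM (SE 0.143) and 1.28 CPM (SE 0.448).

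**Figure D3:**
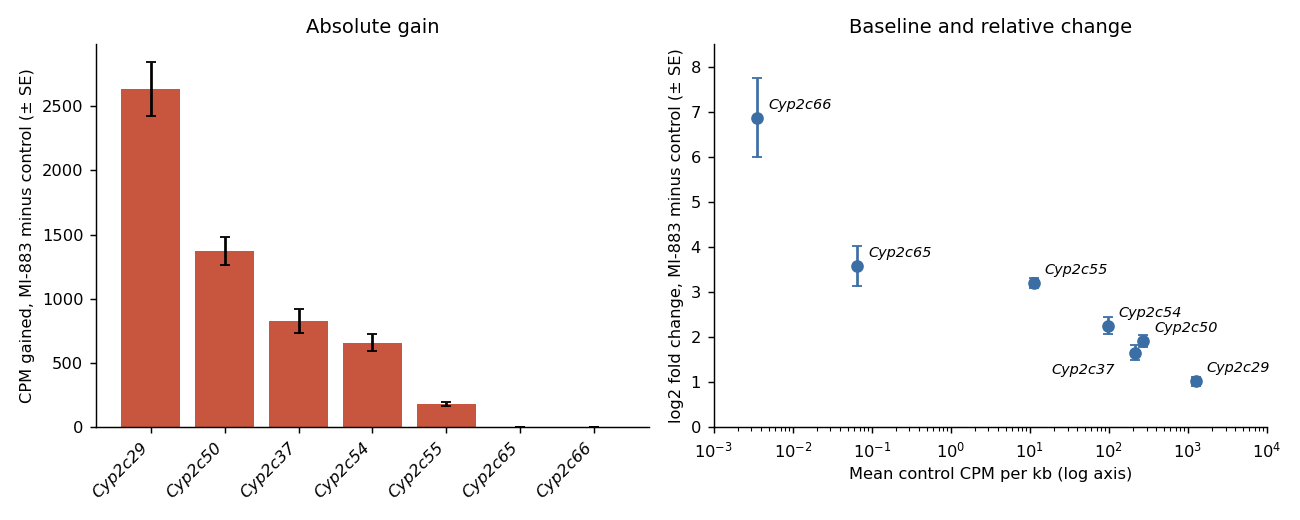
Left, CPM gained (MI-883 minus control, with SE) by each raised gene, and right, log2 fold change with SE against mean control CPM per kb on a log axis. The gain falls from 2634 CPM in *Cyp2c29* to 1.28 CPM in *Cyp2c66*, which is too small to be seen at this scale, while the fold change is smallest in *Cyp2c29*.

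Summed over the 7 genes, the control livers held 3041, 3508, 3341, 4166 and 4130.5 CPM and the MI-883-treated livers 8673, 10165.5, 8076, 9989 and 9701 CPM. The sum thus went from 3637 ± 496 to 9321 ± 904 CPM, a gain of 5684 CPM (SE 461). As a share of the TMM-normalized library size this was from 0.364% to 0.932%. The gain was 29.6% of the CPM gained by the 101 genes called higher. Over the whole cluster the raised genes made up 83.1 ± 1.28% of *Cyp2c* counts in control livers and 94.9 ± 1.08% in MI-883-treated livers.

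The make-up of the raised transcripts moved away from *Cyp2c29*. Its share of the summed CPM was 72.6, 72.5, 69.8, 67.5 and 69.7% in the control livers and 58.1, 55.6, 58.0, 53.6 and 53.8% in the MI-883-treated livers. The trio *Cyp2c50*, *Cyp2c37* and *Cyp2c54* went from 28.9 ± 2.19% to 42.0 ± 2.07%, and *Cyp2c55* from 0.622 ± 0.0891% to 2.20 ± 0.174%. The ratio of *Cyp2c29* to *Cyp2c55* in CPM was 115 ± 16.1 in control livers and 25.5 ± 2.74 with MI-883. Within the trio the ratio of *Cyp2c54* to *Cyp2c37* went from 0.454 ± 0.0877 to 0.685 ± 0.0411 without overlap, whereas that of *Cyp2c50* to *Cyp2c37* (1.33 ± 0.243 and 1.55 ± 0.0959) overlapped between the groups.

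**Figure D4:**
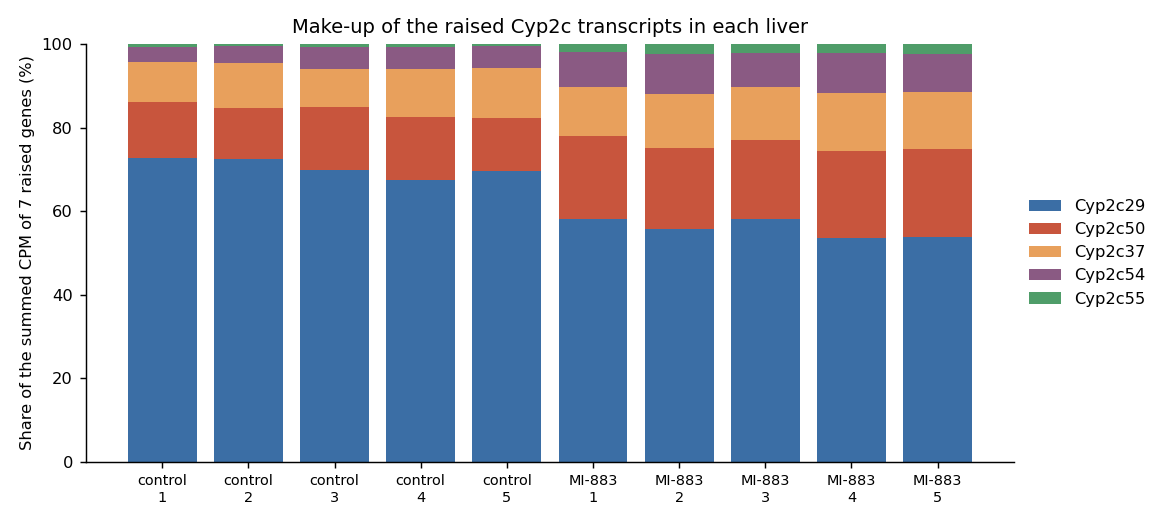
Share of the summed CPM of the 7 raised genes held by each gene in each liver, in percent, with *Cyp2c65* and *Cyp2c66* too small to draw. The share of *Cyp2c29* lies between 67.5 and 72.6% in control livers and between 53.6 and 58.1% in MI-883-treated livers.

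The spread between livers of a group was not used to choose the genes and could be tested. Among treated livers, replicate 3 was the lowest in 6 of the 7 genes, all but *Cyp2c37*, and replicate 5 was the highest in *Cyp2c55*, *Cyp2c65* and *Cyp2c66*. The group mean was subtracted from the log2 CPM of each gene, which leaves the deviation of a liver from its group, and the deviations were correlated over the 10 livers. The 5 genes with at least 10 counts in every liver entered. *P* values are from exact two-sided permutations of livers within groups, adjusted over the 10 pairs.

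**Figure D5:**
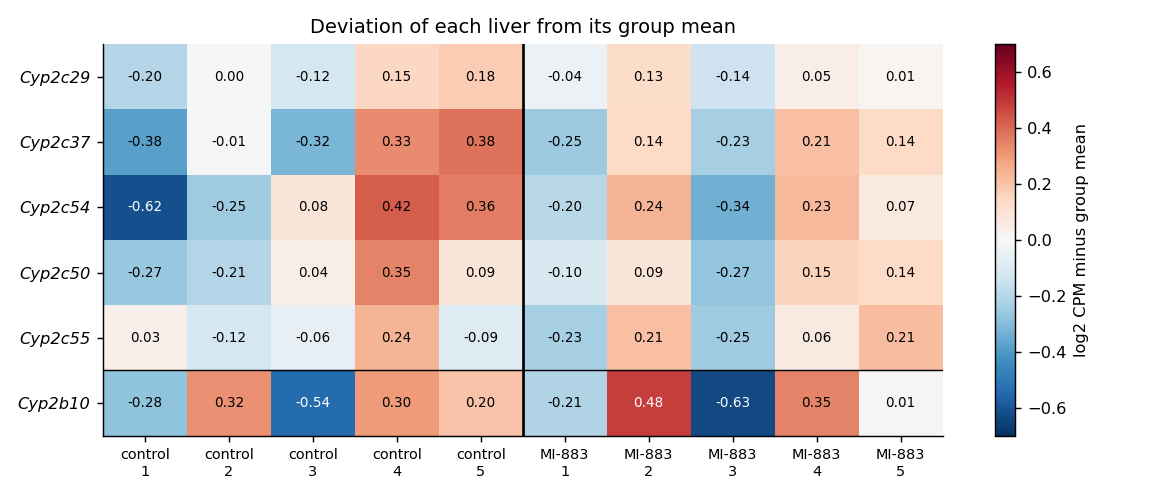
Deviation of each liver from its group mean, in log2 CPM, for 5 raised *Cyp2c* genes and *Cyp2b10*, with the control livers to the left of the line and the MI-883-treated livers to the right. Control replicate 1 is at -0.62 and control replicate 4 at 0.42 for *Cyp2c54*, and treated replicate 3 is below 0 in all 6 genes.

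The deviations were correlated positively in 10 of 10 pairs (median *r* 0.75), and 7 pairs had an adjusted *P* under 0.05. *Cyp2c29* and *Cyp2c37*, which lie in different runs and share no 100-base stretch, were the closest pair (Pearson *r* = 0.94, adjusted exact permutation *P* = 0.0101, Spearman rho 0.95, adjusted *P* = 0.0162). *Cyp2c54* and *Cyp2c50*, near copies that share such stretches, followed (*r* = 0.92, adjusted exact permutation *P* = 0.00833, rho 0.85, adjusted *P* = 0.0162). Leaving out the 2 livers farthest from the median gave *r* = 0.90 for both pairs. The distance was taken in the gene named first, and in *Cyp2b10* for its pairs below, so the livers left out depend on that choice. The deviations of *Cyp2c29* with *Cyp2c54* (*r* = 0.86), *Cyp2c37* with *Cyp2c54* (0.83), *Cyp2c37* with *Cyp2c50* (0.76) and *Cyp2c29* with *Cyp2c50* (0.74) also passed, with adjusted exact *P* values from 0.0262 to 0.0447. In these 4 pairs *r* lay between 0.72 and 0.94 without the 2 farthest livers. *Cyp2c37*, *Cyp2c54* and *Cyp2c50* share 100-base stretches with each other, and the part of exchanged reads in their correlations was not tested.

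*Cyp2c55* followed the others less closely. With *Cyp2c50* it reached *r* = 0.71 (adjusted exact permutation *P* = 0.0421, rho 0.77, adjusted exact permutation *P* = 0.0303). This *r* fell to 0.35 without control replicate 4 and treated replicate 3, the 2 livers farthest out in *Cyp2c55*. How far the relation rests on these 2 livers was not tested. With *Cyp2c29*, *Cyp2c37* and *Cyp2c54* it reached 0.45, 0.52 and 0.51 (adjusted exact permutation *P* from 0.124 to 0.172). Whether its correlations differ from those among the other 4 genes was not tested.

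The correlations depended on how the libraries were scaled. With total counts in place of TMM factors, 0 of 10 pairs passed the adjusted exact permutation test (2 at an unadjusted *P* under 0.05), the pairs were still all positive, and the median *r* was 0.59. Leaving out single livers left between 2 pairs (without control replicate 4 or treated replicate 3) and 8 pairs (without control replicate 5), with 3 pairs without control replicate 1 or treated replicate 1 or 4 and 4 pairs without treated replicate 2 or 5. Many other genes vary along with these: the first component of the deviations of 7788 genes over 10 CPM held 34.5% of their variance, and it correlated with *Cyp2c54* at 0.92, *Cyp2c50* at 0.82, *Cyp2c37* at 0.72, *Cyp2c29* at 0.71 and *Cyp2c55* at 0.44. With this component removed, 0 of 10 pairs passed (3 at an unadjusted *P* under 0.05, exact permutation, an alternative chosen after seeing the data). For comparison, the median *r* of a single raised gene with the 7787 other genes over 10 CPM lay between 0.11 and 0.16. The upper quartile of these *r* lay between 0.31 (*Cyp2c55*) and 0.47 (*Cyp2c54*). Over 25 pairs of a raised gene with another gene of the cluster the median *r* was -0.14 (-0.75 to 0.68). Over 10 pairs of those other genes with each other it was 0.32.

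*Cyp2b10*, the best known CAR target of mouse liver, was at 29.2, 44.3, 24.4, 43.8 and 40.8 CPM in control livers and at 851, 1375, 634, 1249 and 989 CPM in MI-883-treated livers (log2 fold change 4.80, SE 0.247, adjusted *P* = 3.6e-07, edgeR). Its deviations were correlated with those of *Cyp2c29* (*r* = 0.83, adjusted exact permutation *P* = 0.0281, rho 0.73) and *Cyp2c37* (*r* = 0.80, adjusted exact permutation *P* = 0.0429, rho 0.67), which were 0.77 and 0.76 without the 2 farthest livers. Those of *Cyp2c54*, *Cyp2c55* and *Cyp2c50* reached 0.58, 0.57 and 0.55, each with an adjusted exact permutation *P* of 0.12. By rank, none of the 5 passed after adjustment (Spearman, adjusted exact *P* from 0.0755 to 0.203, 2 at an unadjusted *P* under 0.05). With total counts 0 of 5 passed (2 unadjusted). Leaving out a single liver gave 0 of 5 without control replicate 4 or treated replicate 2, 3, 4 or 5, 1 without control replicate 5, and 4 without control replicate 2 or 3.

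The genes outside the cluster whose deviations were most like the mean of the 5 raised genes, among 7779 with at least 10 CPM, were *Mettl8* (*r* = 0.97), *Mief1* (0.97), *Gstk1* (0.96), *Akr1c14* (0.96) and *Cd1d1* (0.95), over 10 livers. This choice rests on single livers: of the 5 names, 0 were among the first 5 without control replicate 3 or 4, 2 without treated replicate 1 or 2, 3 without control replicate 1 or 5 or treated replicate 3 or 5, and 3 with total counts. None of the 5 had an adjusted *P* under 0.05 between the groups in edgeR. *Cyp2b10* ranked 487 by this measure (*r* = 0.73).

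Among the other genes of the cluster, 0 of 7 were called lower by edgeR, where 0.265% of all genes were (7 at an unadjusted *P* under 0.05, and 5 called by DESeq2), with a median log2 fold change of -0.72. In *Cyp2c67*, *Cyp2c40* and *Cyp2c70*, the last of which makes muricholic acids from bile acids, every treated liver lay below every control liver, as in 1.93% of all genes. *Cyp2c70* went from 334 ± 63.2 to 223 ± 44.5 CPM (adjusted *P* = 0.103 in edgeR and 0.0122 in DESeq2), and *Cyp2c67* from 179.8 ± 13.2 to 124 ± 28.4 CPM (adjusted *P* = 0.0749 in edgeR and 0.00543 in DESeq2). The study, which used DESeq2 with another count filter, reported *Cyp2c70* as slightly but significantly lower. The nearest relatives of *Cyp2c29* had lower means with MI-883 and overlapping livers, *Cyp2c39* at 3.13 and 1.81 CPM and *Cyp2c38* at 81.6 and 49.4 CPM. The 7 genes summed to 735 ± 98.7 CPM in control livers and 492 ± 76.4 CPM with MI-883, a difference of -243 CPM (SE 55.8) beside the gain of 5684 CPM of the raised genes.

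Of 19 tested P450 genes outside *Cyp2c* whose enzymes act on arachidonic acid, edgeR called 3 higher, beside 0.764% of all genes. It called 0 lower, beside 0.265% (3 lower at an unadjusted *P* under 0.05, 0 in DESeq2). The median log2 fold change of the list was -0.02. *Cyp1a2* rose from 286 ± 56.5 to 969 ± 211 CPM (log2 fold change 1.76, SE 0.168, adjusted *P* = 0.000124, edgeR). The omega-hydroxylase genes *Cyp4a12a* (from 255 to 461 CPM, adjusted *P* = 0.0428) and *Cyp4a12b* (from 116 to 201 CPM, adjusted *P* = 0.0141) rose as well, with an adjusted *P* under 0.05 in 7 and 16 of 17 alternatives of the fit and log2 fold changes of 0.72 to 0.98 and 0.70 to 0.86 over all 17. The epoxygenase *Cyp2j5* was at 708 ± 69.8 and 649 ± 73.4 CPM.

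Among 15 tested genes that release arachidonic acid, return it to lipids or act on its epoxides, edgeR called 1 higher and 0 lower. The shares of all genes were 0.764% and 0.265% (in the list 2 and 2 at an unadjusted *P* under 0.05, 2 and 1 in DESeq2). The gene called by edgeR was *Ephx1*, the microsomal epoxide hydrolase, which rose from 524 ± 86.0 to 800.1 ± 44.5 CPM (log2 fold change 0.61, SE 0.108, adjusted *P* = 0.0182, edgeR, and past the threshold in 13 of 17 alternatives). *Ephx2*, the soluble epoxide hydrolase, was at 1064 ± 93.3 and 1023 ± 84.8 CPM (adjusted *P* = 0.789, edgeR). The partners that hand electrons or heme to P450 enzymes had 0 of 14 genes called by edgeR, beside 1.03% of all genes (2 higher at an unadjusted *P* under 0.05, 2 called in DESeq2, and 2 called by edgeR with total counts). Among them *Por*, the reductase that all these enzymes need, was at 850.5 ± 231 and 1147 ± 356 CPM with overlapping livers (adjusted *P* = 0.365, edgeR).

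Of the known targets of CAR and PXR outside *Cyp2c*, 17 of 34 were called higher and 0 lower by edgeR (0 lower at an unadjusted *P* under 0.05 or in DESeq2), beside 0.764% of all genes called higher, and their median log2 fold change was 0.55. The 17 became 10 without control replicate 3 or treated replicate 2 and 11 without treated replicate 5. Besides *Cyp2b10* and *Cyp1a2* they held *Gstm3*, a glutathione transferase (log2 fold change 3.24), the reductase *Akr1b7* (3.05), *Gadd45b* (2.54), the efflux transporter *Abcc4* (2.45), the glucuronosyltransferase *Ugt1a9* (2.06), *Gstm2* (1.55), *Gstm1* (1.08) and the carboxylesterase *Ces2a* (0.98). Of the 10 named, 10 passed in each alternative of the fit in which they were tested. The receptors and their partners had 0 of 18 called by edgeR, beside 1.03% of all genes (2 lower at an unadjusted *P* under 0.05, 1 in DESeq2). Reads on the mouse genes *Nr1i2* (PXR, 12.5 and 13.1 CPM) and *Nr1i3* (CAR, 7.48 and 6.67 CPM) were few in both groups, and their source in these humanized animals was not examined.

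Liver cell types were compared through marker lists, since the raised genes differ in where they are known to be expressed. Beside these lists, edgeR called 0.764% of all genes higher and 0.265% lower. Of 7 hepatocyte markers 0 were called by edgeR (3 lower at an unadjusted *P* under 0.05, 1 in DESeq2), with a summed level of 75728 to 88249 CPM in control livers and 63492 to 76482 CPM with MI-883. Of 9 pericentral markers 0 were called by edgeR (3 higher and 1 lower unadjusted, 1 and 1 in DESeq2), and of 8 periportal markers 1 was called lower, *Hal* (from 201 ± 22.0 to 146 ± 12.8 CPM, adjusted *P* = 0.0264, edgeR, past the threshold in 9 of 17 alternatives; 5 lower at an unadjusted *P* under 0.05, 1 in DESeq2), with a median log2 fold change of 0.27 for the first list and -0.29 for the second. The 6 tested cholangiocyte markers were all above 0 in log2 fold change (median 0.54) and 0 were called (1 unadjusted, 0 in DESeq2), with summed levels of 33.9 to 129 CPM and 45.8 to 202 CPM. Of the 19 Kupffer, stellate and endothelial markers 0 were called by edgeR or DESeq2 (3 unadjusted). The part of these lists in the raised genes was not tested. Of the 8 gut epithelium markers, which bear on *Cyp2c65* and *Cyp2c66*, 1 passed the count minimum. *Lgals4* was at 26.6 and 29.5 CPM, *Muc2* at 0.109 and 0.107 CPM, and *Cdx2*, *Sis*, *Lct* and *Krt20* each had a mean under 0.03 CPM in either group, less than the 0.104 CPM of 3 counts in an average control liver.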

How the data were processed

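Liver RNA of 10 mice was sequenced as paired reads of directional libraries. The authors aligned the reads to mm10 with STAR, counted them per gene with featureCounts after fastp 0.23.0 (submitters' processing notes), and deposited raw counts without normalization. The lowest total of a listed gene was 1 count, so genes without counts are not listed. The strand setting and gene annotation are not given in the sources used here. Of 16647 Entrez genes, 16644 were matched to RefSeq (GRCm38) for symbols.

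The 7 genes, the gene lists and the tests were chosen with earlier results of these data known. Genes with 60 or more counts in total were fitted with edgeR 4.0.16 in R 4.3.3 (TMM, quasi-likelihood test, group as the sole term, Benjamini-Hochberg adjustment over 13219 genes, threshold 0.05). SEs are the log2 fold change over the square root of F. DESeq2 1.42.0 (Wald test without independent filtering) was an alternative. CPM per kb used the union of exons in GENCODE M21. Correlations used log2 CPM with a prior count of 2 minus the group mean and all 14400 permutations within groups. Interval bounds for low counts are exact binomial at 95%. Coding sequences and upstream windows were aligned with Biopython 1.88. Replicates are separate animals. The fits and correlations were tested on simulated data.

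Named genes were the 14 *Cyp2c* genes, *Cyp2b10*, list members with an adjusted *P* under 0.05 (up to 10 per list by fold change), defining enzymes of a list, and the 5 genes most like the raised genes within groups. *Cyp2c23* and single markers were added after their values were seen. The data hold no batch labels.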

Additional observations from a re-analysis of the deposited data

Results flagged for a closer look

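In 5 of 52 groups of 5 livers, 1 liver stood apart from the other 4 by Dixon's criterion, where chance gives about 2.6 (1 in 20). *Cyp2c38* was at 50.5 CPM in control replicate 3, below the next control liver at 84.5 CPM. *Cyp2c66* was at 0.0290 CPM in control replicate 4, which is a single count, with 0 in the other control livers. *Cyp2c69* was at 0.921 CPM in control replicate 5, above the next at 0.307 CPM. The raised genes made up 85.4% of the *Cyp2c* counts in control replicate 4, with the next control liver at 82.9%. The ratio of *Cyp2c50* to *Cyp2c37* was 1.72 in MI-883 replicate 1, with the next treated liver at 1.55.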

How the results depend on the processing

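The 7 raised genes kept their direction under every alternative in which they were fitted, with log2 fold changes of 0.97 to 1.07 for *Cyp2c29*, 1.57 to 1.76 for *Cyp2c37*, 1.84 to 2.00 for *Cyp2c50*, 2.13 to 2.37 for *Cyp2c54*, 3.15 to 3.27 for *Cyp2c55*, 3.31 to 3.83 for *Cyp2c65* and 6.30 to 8.14 for *Cyp2c66*, the last without control replicate 4, which held its 1 control count (6.86 with all livers). With 60 counts required in every liver, *Cyp2c65* and *Cyp2c66* were not fitted. The summed gain was 5678 CPM with size factors of DESeq2, 5865 CPM with total counts and 5473 to 5995 CPM without single livers. The Wald test of DESeq2 called 463 genes in place of 136 and 34 of the pathway lists in place of 20 of 104. Without single livers edgeR called 62 to 208 genes (208 without control replicate 1, 87, 81, 75 and 68 without control replicates 2, 3, 4 and 5, and 70 and 62 without MI-883 replicates 2 and 5) and 12 to 20 of the lists (12 without control replicate 3 or MI-883 replicate 2 or 5). The number of correlated pairs, 7 of 10, was 0 with total counts, 0 with the first component removed (chosen after seeing the data) and 2 to 8 without single livers. With *Cyp2b10* it was 2 of 5, and 0 with total counts, 0 with the component removed and 0 to 4 without single livers. The cause was not tested. The deviations of livers with the same replicate number correlated at 0.36, -0.12, -0.10, 0.08 and 0.08. No control liver correlated best with the treated liver of its own number, and among treated livers only replicate 1 did so with its control. These values gave no clear sign of pairing by number, and pairing was not tested. With the replicate block, 89 genes and 15 of the lists were called, 3 of 10 pairs passed, and 0 of 5 with *Cyp2b10* (2 unadjusted). The depth of the libraries limits *Cyp2c65* and *Cyp2c66*, since 3 counts in a control liver correspond to 0.0838 to 0.132 CPM.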
